A study of Mus musculus with 51 samples.

Results

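Femoral RNA of mice lacking Tet2 in limb mesenchyme (Tet2 cKO) was compared with that of Cre-positive controls (Ctrl) across all genes measured. The 3 Tet2 cKO and 3 Ctrl libraries were taken by their labels from 51 samples in the series and belong to an RNA-seq experiment of 12 femur libraries, whose other 6 are Tet1 cKO and Tet1/2 cKO. All mice were C57BL/6, 11 weeks old and carried Prrx1-Cre. Ctrl mice had wild-type Tet alleles (wt/wt: Prrx1-Cre+), and Tet2 cKO mice were Tet2fl/fl: Prrx1-Cre+ with loxP sites around exon 3 of Tet2. Femurs were stripped of periosteum, flushed of marrow, washed and minced before RNA was isolated, so each library is a whole piece of bone tissue with the cells that remained on it. Values are gene counts that the authors divided by a DESeq2 size factor per library, called normalized counts here.

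TET2 is a dioxygenase that oxidizes 5-methylcytosine in DNA to 5-hydroxymethylcytosine and further to formyl- and carboxylcytosine, and it needs iron, α-ketoglutarate and Vitamin C. Thymine DNA glycosylase (TDG) cuts out the last of these products and so completes demethylation. In bone, TET enzymes act in the differentiation of stromal progenitors to osteoblasts, while in blood-forming cells loss of TET2 is known to favour clonal growth and inflammatory gene expression. The Prrx1 enhancer drives Cre in the limb mesenchyme that gives rise to osteoblasts, osteocytes, chondrocytes, tendon and stromal cells. Blood-forming cells and muscle fibres have another origin and are not deleted by it, so bone, muscle and marrow content bears on what a femur library can show of the deletion.

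The targeted gene was measured as a whole gene. Tet2 (chr3:133463677-133545136, mm10, minus strand) had 2236, 2512 and 2251 normalized counts in Ctrl replicates 1, 2 and 3 and 2245, 2209.7 and 1834 in Tet2 cKO replicates 1, 2 and 3. The groups overlapped, and the difference was -0.16 on the log2 scale (SE 0.17, limma adjusted p = 1). Exon 3 (chr3:133485512-133488717), as RefSeq numbers it, takes up 3206 of 9181 bases, or 34.9%, of the annotated transcript, and a count over the gene does not separate it from the other exons. The count therefore checks the deletion poorly, and the share of recombined cells was not measured. Tet1 and Tet3, the paralogous hydroxylases, had log2 differences of 0.31 (SE 0.25) and -0.15 (SE 0.17), both with overlapping groups. Prrx1, whose enhancer drives the Cre, ranged from 1752 to 3796 normalized counts in Ctrl and stood at 6729, 1668 and 2089 in Tet2 cKO, and both groups overlapped.

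The 3 Tet2 cKO libraries held very different mixtures of tissue. Tet2 cKO replicate 1 was rich in muscle, fat and osteocyte transcripts and poor in marrow transcripts. In replicate 2, bone matrix transcripts were few and muscle and neutrophil transcripts many. Replicate 3 was rich in bone matrix transcripts, and muscle transcripts were nearly missing. Across the 16780 genes tested, the median standard deviation within a group on the log2 scale was 0.48 in Tet2 cKO and 0.30 in Ctrl. A standard deviation above 1 was found for 3625 genes (21.6%) in Tet2 cKO and for 1594 genes in Ctrl. Read depth (in units of 1e6 reads, recovered from the values) was 33.0, 28.6 and 46.4 in Ctrl and 35.1, 36.9 and 37.1 in Tet2 cKO, so the knockout libraries lay within the range of Ctrl. The Y-linked genes Ddx3y, Eif2s3y, Kdm5d and Uty were present in all 6 libraries at 765 or more normalized counts, so that no library differed in sex.

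**Figure D1:**
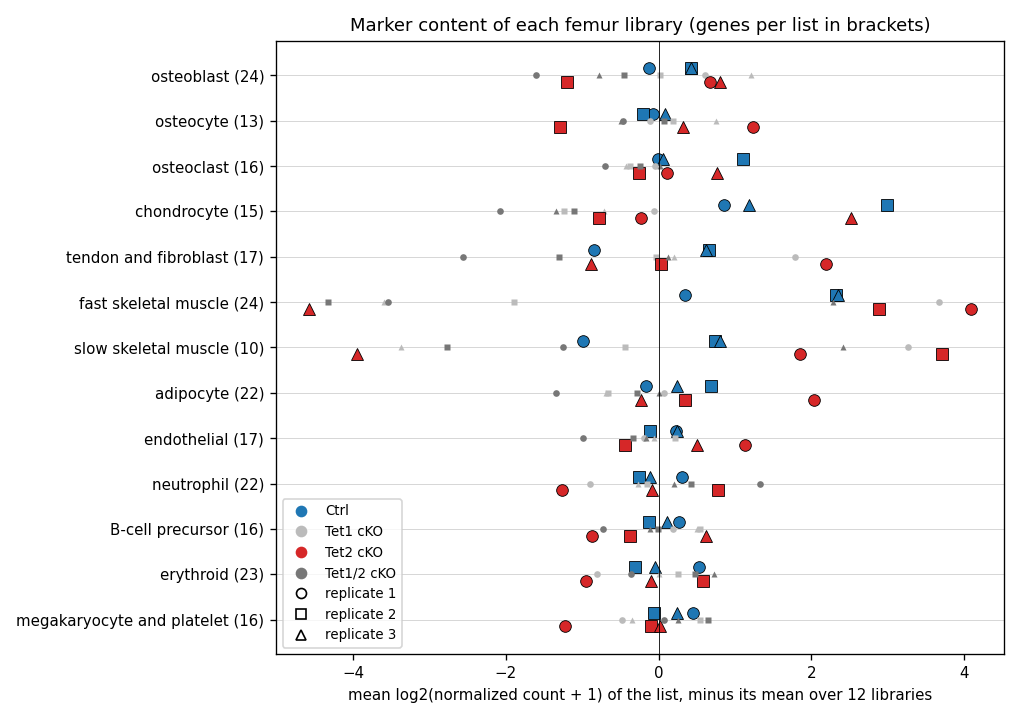
Mean log2(normalized count + 1) of each marker list, minus its mean over the 12 femur libraries, on the horizontal axis, with lists and their number of tested genes on the vertical axis. Large blue and red symbols are Ctrl and Tet2 cKO libraries (circle, square and triangle for replicates 1, 2 and 3) and small grey symbols the other 6. The red symbols lie farther apart than the blue ones in most rows, most of all for fast skeletal muscle, where they run from 7.67 to 16.3 before centring.

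Muscle content covered the widest range. The 24 genes of fast skeletal muscle made up 0.589%, 1.96% and 2.40% of all normalized counts in Ctrl replicates 1 to 3. In Tet2 cKO they made up 6.16%, 3.24% and 0.0230%, so the Ctrl libraries lay between the extremes of the knockout group. Myh4, the fast IIb myosin heavy chain, had 26056, 69963 and 140652 normalized counts in Ctrl and 370385, 181736 and 929 in Tet2 cKO. Acta1, skeletal muscle actin, had 13936, 60390 and 64819 in Ctrl and 243969, 109467 and 198 in Tet2 cKO. For both genes Tet2 cKO replicates 1 and 2 were above all Ctrl libraries and replicate 3 was far below them. Among slow fibre genes, Myh7, the slow myosin heavy chain, was highest in Tet2 cKO replicate 2, with 106, 3606 and 3.66 in Tet2 cKO against 16.9, 9.48 and 172 in Ctrl, while Mb, the oxygen-binding myoglobin, was highest in replicate 1, with 83289.6, 31344 and 36.6 against 4463, 36489 and 15950. All 24 fast muscle genes had a log2 difference below 0, with a median of -0.83, none past the threshold and none with groups that did not overlap. That direction rested on 1 library, as the median was 1.78 without Tet2 cKO replicate 3 and -2.45 without Tet2 cKO replicate 1. The 13 mitochondrially encoded genes, chosen after their values were seen, also varied, with a mean log2 value of 10.3, 13.1 and 12.3 in Ctrl and 13.9, 10.8 and 9.39 in Tet2 cKO. For these genes Tet2 cKO replicate 2 was below Ctrl replicates 2 and 3, although its fast muscle share was higher.

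Bone content also differed among the knockout libraries. The 24 osteoblast genes made up 3.64%, 3.60% and 4.49% of normalized counts in Ctrl and 3.95%, 1.08% and 8.21% in Tet2 cKO. Col1a1, the main collagen of bone matrix, had 387599, 415356 and 516478 normalized counts in Ctrl and 520460, 114889 and 874182 in Tet2 cKO. Bglap, osteocalcin, had 16999, 13645 and 22344 in Ctrl and 18474, 5883 and 36556 in Tet2 cKO. For both genes Tet2 cKO replicate 2 was the lowest and replicate 3 the highest of the 6 libraries. Sost, the Wnt inhibitor sclerostin made by osteocytes, had 720.1, 200.4 and 445 in Ctrl and 7373, 56.8 and 1526 in Tet2 cKO, and here replicate 1 was the highest and replicate 2 again the lowest. Since a bulk library sums over cells, fewer cells of a type and less RNA per cell cannot be told apart.

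**Figure D2:**
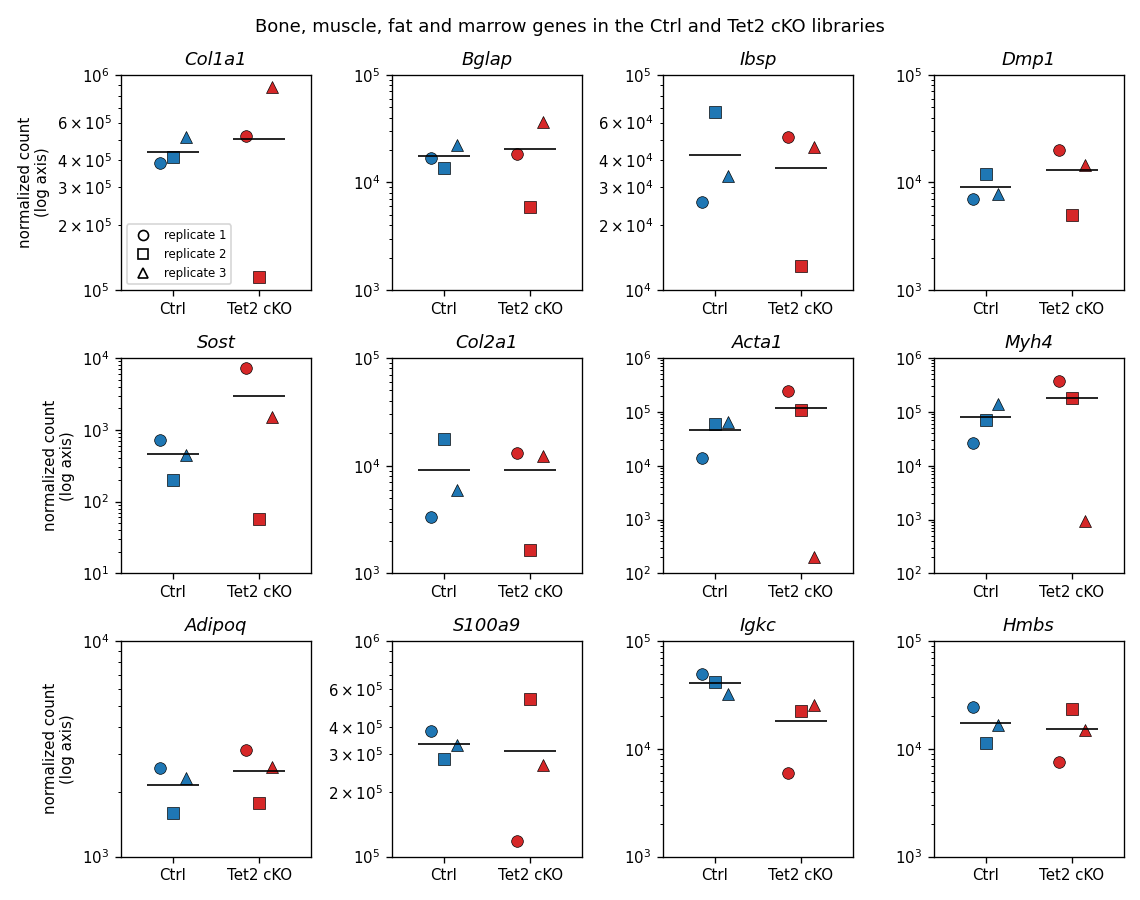
Normalized counts (vertical log axes) of single bone, cartilage, muscle, fat and marrow genes in the Ctrl (blue) and Tet2 cKO (red) libraries. Circles, squares and triangles are replicates 1, 2 and 3, and the line is the mean of 3. Tet2 cKO replicate 2 is lowest for Col1a1 (114889) and replicate 3 for Myh4 (929), and the groups overlap in every panel except Igkc.

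Marrow cells remained in every library in spite of flushing. The 22 neutrophil genes made up 4.29%, 2.55% and 3.32% of normalized counts in Ctrl and 1.10%, 5.51% and 3.35% in Tet2 cKO, with the muscle-rich replicate 1 lowest and replicate 2 highest of the 6. S100a9, an abundant neutrophil granule protein, had 384047, 283432 and 330221 normalized counts in Ctrl and 117520, 541643 and 266359 in Tet2 cKO. Erythroid genes made up 1.26%, 0.606% and 0.777% in Ctrl and 0.334%, 1.15% and 0.760% in Tet2 cKO. B-cell precursor genes were ordered otherwise within the knockout group, at 0.0296%, 0.0586% and 0.104% against 0.0874%, 0.0535% and 0.0712% in Ctrl, and replicate 3 was the highest of the 6 for them. The 25 cell cycle genes, led by Mki67 with 83148, 39704 and 46398 normalized counts in Ctrl and 21094, 66638 and 51209 in Tet2 cKO, were lowest in Tet2 cKO replicate 1, as the neutrophil, erythroid and B-cell precursor genes were.

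Against this spread, 1 gene rose and 1 gene fell in Tet2 cKO among 16780 genes tested (0.00596% in each direction, limma adjusted p below 0.05). At an unadjusted p below 0.05, 110 genes were higher (0.656%) and 258 lower (1.54%). The groups did not overlap for 426 genes that were higher (2.54%) and 575 that were lower (3.43%). The genes past the threshold were Tdg and a pseudogene copied from it, Tdg-ps2. Tdg (chr10:82629814-82650799, plus strand) had 835, 758 and 834 normalized counts in Ctrl and 156, 172 and 223 in Tet2 cKO, with means of 809 ± 44.2 and 184 ± 34.8 (SD, n = 3). Each Tet2 cKO library was below each Ctrl library, and Tdg fell by 2.15 on the log2 scale (SE 0.22, limma adjusted p = 0.00762). Tdg-ps2 (chr10:42052558-42055453, minus strand), annotated as a transcribed pseudogene with a single exon, had 21.1, 37.9 and 27.8 in Ctrl and 689, 912 and 764 in Tet2 cKO. It rose by 4.75 on the log2 scale (SE 0.49, limma adjusted p = 0.00762).

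Tdg-ps2 and a further copy, Tdg-ps (chr15:82516295-82519242), are nearly the same in sequence as the Tdg transcript. Tdg-ps2 aligned to it over 2896 bases with 18 differences (99.4% identity), and Tdg-ps over 2948 bases with 39 (98.7%). Of the 3474 words of 50 bases in the Tdg transcript, the length of a sequenced read end, 61.2% also occurred in Tdg-ps2 and 46.1% in Tdg-ps. The start of Tdg exon 3, which is coding, is shown first because Tdg and Tdg-ps2 are identical there. Capitals mark positions at which any of the 3 sequences differs (RefSeq, GRCm38.p6).

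Tdg, chr10:82641316-82641435, plus strand: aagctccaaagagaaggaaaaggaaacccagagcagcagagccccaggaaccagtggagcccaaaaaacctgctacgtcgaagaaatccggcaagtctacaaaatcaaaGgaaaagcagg

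Tdg-ps2, chr10:42055060-42055179, minus strand: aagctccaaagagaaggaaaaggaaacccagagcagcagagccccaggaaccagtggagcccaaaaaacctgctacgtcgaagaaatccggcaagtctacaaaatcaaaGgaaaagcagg

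Tdg-ps, chr15:82516611-82516730, plus strand: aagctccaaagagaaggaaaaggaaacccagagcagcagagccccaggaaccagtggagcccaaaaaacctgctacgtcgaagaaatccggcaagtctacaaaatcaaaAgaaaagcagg

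The stretch of 100 coding bases within 1 exon at which Tdg differs most from Tdg-ps2 lies at the start of exon 10 and is shown because its 4 differences between these genes can assign a read. Over the 1266 coding bases of Tdg there are 9 such differences.

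Tdg, chr10:82648578-82648677, plus strand: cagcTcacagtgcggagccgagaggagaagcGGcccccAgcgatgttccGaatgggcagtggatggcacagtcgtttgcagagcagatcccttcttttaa

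Tdg-ps2, chr10:42054156-42054255, minus strand: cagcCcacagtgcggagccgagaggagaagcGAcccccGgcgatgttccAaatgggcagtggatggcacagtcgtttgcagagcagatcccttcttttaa

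Tdg-ps, chr15:82517535-82517634, plus strand: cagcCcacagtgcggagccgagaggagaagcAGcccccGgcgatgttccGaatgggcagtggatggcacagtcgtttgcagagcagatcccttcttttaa

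The counts of Tdg and its copies mirrored each other. Summed over Tdg, Tdg-ps and Tdg-ps2, the normalized counts were 861, 796 and 864 in Ctrl and 844, 1087 and 986 in Tet2 cKO, a log2 difference of 0.20 (SE 0.17, unadjusted p = 0.254, limma adjusted p = 1). Tdg held 97.1%, 95.2% and 96.6% of this sum in Ctrl and 18.4%, 15.9% and 22.6% in Tet2 cKO. The share was 17.2%, 22.6% and 15.7% in Tet1 cKO, where Tet2 is not floxed, and 90.4%, 96.3% and 95.3% in Tet1/2 cKO, where both genes are. In this share the single knockouts stood together at the low end and the double knockout stood with Ctrl at the high end. How reads were divided between the copies was not tested, and for genes that share sequence a change of the assigned gene and a change of expression cannot be told apart. Neither call held in every alternative analysis, and both were lost with Ctrl replicate 1, 2 or 3 or Tet2 cKO replicate 2 left out. In all, over 18 alternative analyses, the log2 difference of Tdg lay between -2.30 and -2.04 with adjusted p between 2.22e-14 and 0.314, and 11 of 18 passed the threshold. For Tdg-ps2 it lay between 4.55 and 4.95 with adjusted p between 2.3e-42 and 0.106, and 12 of 18 passed. DESeq2 on the recovered reads gave the most calls, 6 higher and 13 lower, with Tdg and Tdg-ps2 among them.

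**Figure D3:**
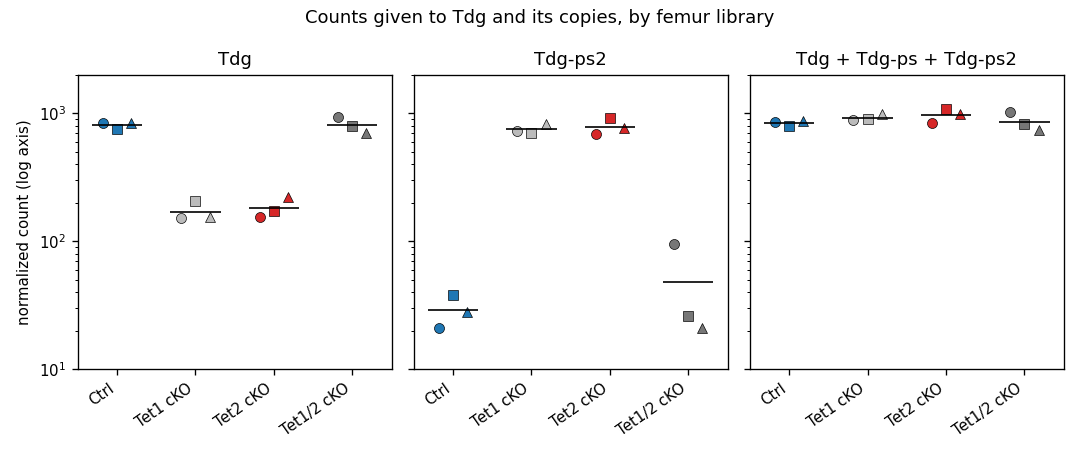
Normalized counts (log axis) of Tdg, of Tdg-ps2 and of their sum with Tdg-ps in the 12 femur libraries by genotype. Circles, squares and triangles are replicates 1, 2 and 3, and the line is the mean of 3. Tdg is low and Tdg-ps2 high in Tet1 cKO and Tet2 cKO, while the sum lies between 736 and 1087 in all 12 libraries.

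None of the other genes passed the threshold in limma. Described next are 11 higher and 10 lower genes, among those with the smallest unadjusted p that separated the groups completely and averaged 50 normalized counts or more in the higher group. Their values stand as a description, as limma called none of them. DESeq2 on the recovered reads did call part of them, namely Slc39a2, Ccnb1ip1, Sox13, Ggt1 and Rnase2a as higher and Hmga2-ps1, Slfn8, Itln1, Rps3a1, Igkv4-57-1 and Igkv4-72 as lower, while edgeR on the same reads called Tdg-ps2 alone.

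Among the genes that were higher in Tet2 cKO, a pair of genes on chromosome 14 came close to an on-off pattern. Slc39a2 (chr14:51893082-51896745), a zinc importer, had 21.1, 52.8 and 40.22 normalized counts in Ctrl and 1932, 860.4 and 857 in Tet2 cKO, a log2 difference of 4.94 (SE 1.08, unadjusted p = 0.000761, limma adjusted p = 1). Ccnb1ip1 (chr14:50789249-50795728), which encodes a ubiquitin ligase of meiotic crossing over, was at 0 in all Ctrl libraries and at 97.7, 209 and 118 in Tet2 cKO. Set against a floor of 3 reads per Ctrl library, it was at least 44.4-fold higher (unadjusted p = 0.000882, limma adjusted p = 1). In the other genotypes Slc39a2 stood at 36.8, 1358 and 54.2 in Tet1 cKO replicates 1 to 3 and 19.8, 12.9 and 24.0 in Tet1/2 cKO. Ccnb1ip1 stood at 0, 139.5 and 0 in Tet1 cKO and at 0 in all Tet1/2 cKO libraries. Both were thus high in the 3 Tet2 cKO libraries and in Tet1 cKO replicate 2 and low in the other 8. The promoter windows of both genes are shown because both genes were high in the same 4 libraries. Each runs from 250 bases before to 50 after the start listed for it (RefSeq, GRCm38.p6). CG, the dinucleotide in which most DNA methylation lies, is in capitals. The Slc39a2 window begins at 51893360, inside the gene span given above, so the start it uses is not the first base of that span.

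Slc39a2, chr14:51893360-51893659, plus strand: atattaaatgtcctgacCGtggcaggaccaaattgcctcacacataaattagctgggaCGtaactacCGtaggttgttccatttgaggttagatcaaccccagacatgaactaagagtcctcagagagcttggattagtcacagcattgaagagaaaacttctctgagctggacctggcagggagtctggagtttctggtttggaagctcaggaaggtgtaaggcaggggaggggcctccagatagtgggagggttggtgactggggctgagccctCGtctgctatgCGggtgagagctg

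Ccnb1ip1, chr14:50795679-50795978, minus strand: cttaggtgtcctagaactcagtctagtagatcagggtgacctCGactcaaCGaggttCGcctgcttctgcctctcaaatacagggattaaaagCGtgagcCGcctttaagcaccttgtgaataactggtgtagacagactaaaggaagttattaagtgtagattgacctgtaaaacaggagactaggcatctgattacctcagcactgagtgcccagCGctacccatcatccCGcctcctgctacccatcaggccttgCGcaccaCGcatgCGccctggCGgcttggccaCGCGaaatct

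The Slc39a2 window holds 5 CG and the Ccnb1ip1 window 13. Of 32851 mouse promoter windows of this length, 94.6% hold at least 1 CG, the median is 7, and 43.6% and 63.7% hold as few as Slc39a2 and Ccnb1ip1 or fewer. Methylation at these windows was not measured in the femur RNA data.

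Sox13, a SOX family transcription factor, had 439.9, 360.2 and 603 normalized counts in Ctrl and 1579.8, 944 and 1176 in Tet2 cKO, with a log2 difference of 1.40 (SE 0.29, unadjusted p = 0.000495, limma adjusted p = 1). It stood at 476, 513 and 492 in the Tet1 cKO libraries and at 459, 710 and 363 in the Tet1/2 cKO libraries. All of these values were below each Tet2 cKO library. Ggt1, which cleaves γ-glutamyl bonds of glutathione outside cells, had 87.8, 71.8 and 38.7 in Ctrl and 244, 989 and 265 in Tet2 cKO (log2 difference 2.66). Rnase2a, an eosinophil ribonuclease, had 6.34, 16.3 and 4.64 in Ctrl and 54.4, 108 and 49.5 in Tet2 cKO (log2 difference 2.91). Adrb3, the β3-adrenergic receptor of fat cells, had 4.23, 6.77 and 0 in Ctrl and 139.7, 18.6 and 21.98 in Tet2 cKO, highest in the fat-rich replicate 1. Adrb3 reached the minimum count required for testing in the Tet2 cKO libraries alone. With Ctrl below that minimum, it could enter the test only as a gene higher in Tet2 cKO, so its separation of the groups carries little weight. Smaller differences with little spread were found for Zbtb48, a telomere-binding zinc finger protein, at 359.5, 397 and 336 in Ctrl and 554, 563 and 520.2 in Tet2 cKO (log2 difference 0.59), and for Abcb8, a mitochondrial transporter, at 899, 794 and 776 and 1444, 1063 and 1159 (log2 difference 0.56). AA465934, Cyyr1 and Cadm3 complete the group, with log2 differences of 2.36, 1.28 and 1.23.

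Among the genes that were lower, Hmga2-ps1 came closest to the threshold. This pseudogene of Hmga2 had 1488, 1372 and 1058 normalized counts in Ctrl and 351, 525 and 443 in Tet2 cKO, a log2 difference of -1.57 (SE 0.25, unadjusted p = 4.74e-05, limma adjusted p = 0.265). Its parent Hmga2 had 43.4, 37.9 and 59.5 in Ctrl and 40.8, 18.6 and 52.2 in Tet2 cKO, with overlapping groups. Slfn8, a Schlafen protein of immune cells, had 1038, 978 and 908 in Ctrl and 119, 259.7 and 325 in Tet2 cKO, a log2 difference of -2.17 (SE 0.38, unadjusted p = 0.000131, limma adjusted p = 0.457). Its neighbour Slfn9, a gene of the same family and chosen after its values were seen, had 555, 501 and 419.9 in Ctrl and 455, 742 and 879 in Tet2 cKO, so its groups overlapped. Itln1, an intestinal lectin, had 187, 198 and 118 in Ctrl and 0, 0 and 3.66 in Tet2 cKO, which is 4 reads in all in the latter group. It was also at 0 in Tet1 cKO replicates 1 and 3, but stood at 156, 71.5 and 94.0 in the Tet1/2 cKO libraries. Rps3a1, a protein of the small ribosomal subunit, had 14975, 14634 and 14709.5 in Ctrl and 4903, 7533 and 7148 in Tet2 cKO (log2 difference -1.20). Its Ctrl libraries lay within a narrow range. Ribosomal protein genes have processed copies in the genome, and whether reads were divided between Rps3a1 and such copies was not tested, so its value is uncertain.

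Genes of platelets and lymphocytes made up part of the lower group. Slc35d3, which acts in the dense granules of platelets, had 460, 739 and 619 in Ctrl and 176, 296 and 307 in Tet2 cKO (log2 difference -1.24). Gimap7, a GTPase of lymphocytes, had 219, 175 and 199 and 66.8, 66.6 and 109.9 (log2 difference -1.31). For both genes Tet2 cKO replicate 3 was the highest of the knockout libraries. The mean log2 value of the T and NK cell list was also lower in each Tet2 cKO library, at 6.86, 7.78 and 7.83, than in Ctrl, at 8.15, 7.92 and 7.91, and that of the megakaryocyte list was 10.79, 11.92 and 12.04 in Tet2 cKO and 12.47, 11.96 and 12.26 in Ctrl. As a share of normalized counts, the T and NK cell list overlapped between the groups. It made up 0.0231%, 0.0155% and 0.0185% in Ctrl and 0.00731%, 0.0175% and 0.0214% in Tet2 cKO. The part of cell content in the differences of these genes and lists was not tested. The variable segments Igkv4-57-1 and Igkv4-72 of the immunoglobulin κ light chain had log2 differences of -4.20 and -3.64. Gm15987 and Pkp3, a desmosomal plakophilin, had -1.17 and -2.04.

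**Figure D4:**
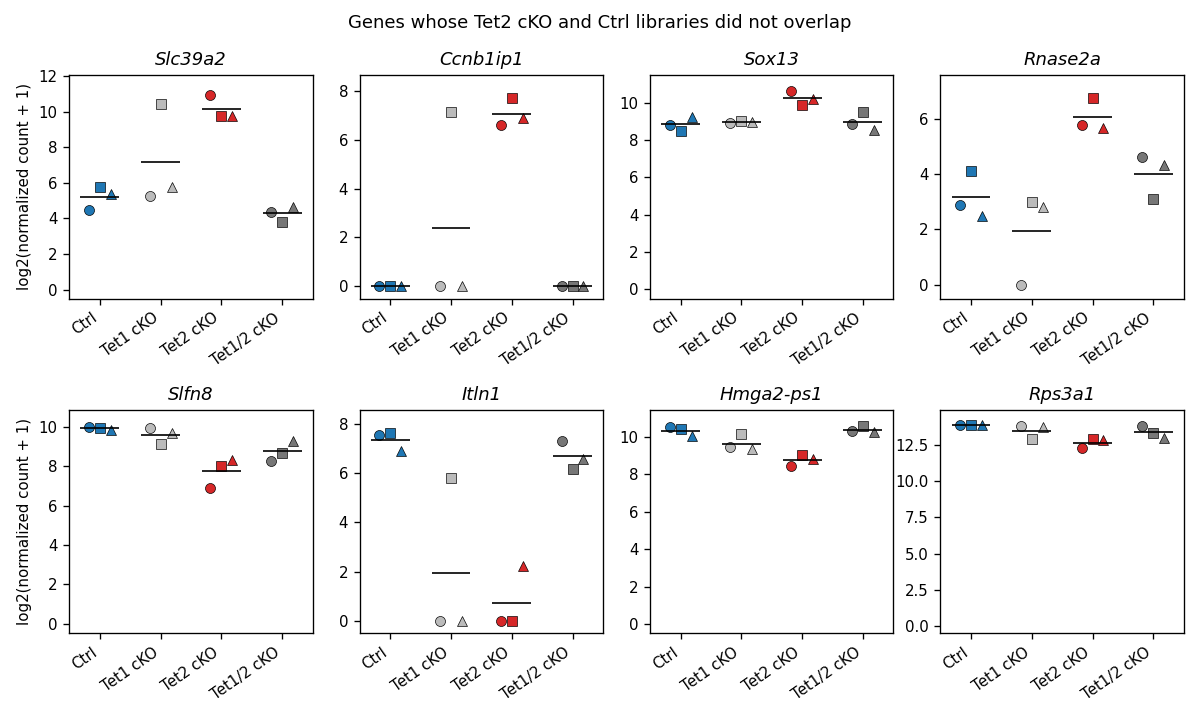
Log2(normalized count + 1) of 8 genes with groups that did not overlap, in the 12 femur libraries by genotype. Circles, squares and triangles are replicates 1, 2 and 3, and the line is the mean of the log2 values. Tet2 cKO is apart from Ctrl in each panel, and Tet1 cKO replicate 2 sits with the Tet2 cKO libraries for Slc39a2 (1358 normalized counts) and Ccnb1ip1 (139.5).

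Genes of this kind lay close together in a few places. A difference of 2-fold or more, with complete separation of the groups and an average of 50 or more in the higher group, was found for 133 of 16780 genes (0.793%), 40 higher and 93 lower. They fell into 82 of 529 windows of 5 Mb, and 6 windows held 5 or more of them, or 45 of 504 tested genes. Immunoglobulin genes, all lower, filled 3 of the 6, of which 2 lie on chromosome 6 and 1 on chromosome 12. Another lay on chromosome 1 between 170000001 and 175000000, with 2 higher and 6 lower genes of 92. It included Ifi202b, an interferon-inducible gene of the HIN-200 family, with 756, 1687 and 615 normalized counts in Ctrl and 24.7, 0 and 0 in Tet2 cKO, and the lymphocyte receptor gene Slamf1, with 1937, 1869 and 1461 and 336, 921 and 803. Ifi202b was listed at 0, 577 and 0 in the Tet1 cKO libraries and at 913, 522 and 656 in the Tet1/2 cKO libraries. The window on chromosome 14 between 50000001 and 55000000 held 7 of 65 genes, with Slc39a2 and Ccnb1ip1 as above. It also held the purine nucleoside phosphorylase Pnp2, with 870.2, 902 and 773 normalized counts in Ctrl and 9.89, 516 and 309 in Tet2 cKO, while its paralog Pnp had 7013, 4483 and 4953 and 1844, 4874 and 4024. Whether reads were divided between these paralogs was not tested, so both values are uncertain. The last window, on chromosome 1 between 130000001 and 135000000, held Sox13 and 4 others, among them Chil1, a chitinase-like protein of myeloid cells, with 5476, 2904 and 4129.8 in Ctrl and 5716, 10873 and 9180.5 in Tet2 cKO. Within 10 Mb of Tet2 itself, 82 genes were tested and 0 met these criteria. Of the 82, 0 were higher and 4 lower without overlap, against 2.54% and 3.43% of all genes tested. Ifi202b, Slamf1, Pnp2, Pnp and Chil1 were chosen after their values were seen.

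Gene lists by cell type and pathway are described by their members above and below 0. Over all genes tested the median log2 difference was -0.011. Of the lists, 1 had a member past the threshold, the list for DNA methylation and hydroxymethylation with Tdg.

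Bone formation genes were centred near 0. Bone60 is a set of bone-selective genes that the study drew from RNA-seq of many tissues. Of its 59 genes tested, 28 had a log2 difference above and 31 below 0, none passed the threshold and none had groups that did not overlap, with a median of -0.035. Of the 24 osteoblast genes 5 were above and 19 below 0, again with none past the threshold and none without overlap, and a median of -0.16. Runx2 and Sp7, the transcription factors that set the osteoblast fate, had -0.037 (SE 0.29) and -0.44 (SE 0.54). Alpl, the phosphatase that frees phosphate for mineral, had -0.18 (SE 0.56), and Ibsp, a sialoprotein of bone matrix, -0.31 (SE 0.54). The sign of both medians depended on 1 library. Without Tet2 cKO replicate 2, the collagen-poor one, the Bone60 median was 0.59 and the osteoblast median 0.51, and without Tet2 cKO replicate 3 they were -0.35 and -0.57.

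Ratios within a library relate bone genes to the amount of Col1a1 in it. Per 1000 normalized counts of Col1a1, Bglap had 43.9, 32.9 and 43.3 in the Ctrl libraries and 35.5, 51.2 and 41.8 in the Tet2 cKO libraries. Sparc, osteonectin, had 352, 266 and 295 in the Ctrl libraries and 303, 307 and 316 in the Tet2 cKO libraries, and Col1a2, the partner chain of type I collagen, 1389, 1192 and 1316 in the Ctrl libraries and 1347, 1164 and 1364 in the Tet2 cKO libraries. The ratios of Bglap, Sparc and Col1a2 stayed within a narrow range although Col1a1 itself varied widely among the Tet2 cKO libraries. Other ratios varied more. Spp1 had 183, 279 and 144 in the Ctrl libraries and 185, 362 and 154 in the Tet2 cKO libraries. Mepe had 5.68, 1.32 and 4.18 in the Ctrl libraries and 17.4, 2.22 and 4.56 in the Tet2 cKO libraries. Dmp1, a matrix protein of osteocytes that regulates phosphate, had 18.3, 29.1 and 15.2 in the Ctrl libraries and 38.4, 43.2 and 16.7 in the Tet2 cKO libraries, higher in Tet2 cKO replicates 1 and 2 than in any Ctrl library. Sost had 1.86, 0.483 and 0.863 in the Ctrl libraries and 14.2, 0.495 and 1.75 in the Tet2 cKO libraries, with replicate 1 far above the other 5 libraries. Of the 14 such ratios computed, none gave an exact two-sided permutation p below 0.3, where 3 against 3 libraries cannot go below 0.1.

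Osteocyte genes were split in the same manner. Of 13 tested, 7 were above and 6 below 0 with a median of 0.035, which was -0.44 without Tet2 cKO replicate 1 and 0.95 without replicate 2. Mepe, a phosphoglycoprotein of osteocytes, had 2200.4, 549.8 and 2160 normalized counts in Ctrl and 9064, 255 and 3988 in Tet2 cKO. Phex, an endopeptidase that restrains phosphate loss, had 2213, 4454 and 3481 and 9161, 498 and 5610.5. In both genes Tet2 cKO replicate 1 was the highest library and replicate 2 the lowest. Genes of the Wnt pathway, which sclerostin inhibits, had 16 above and 13 below 0 with a median of 0.064. Among them the co-receptor Lrp5 had 0.44 (SE 0.41), the target Axin2 0.27 (SE 0.51) and the inhibitor Wif1 -0.37 (SE 0.46). In the TGF-beta and BMP pathway, 20 of 26 genes were above 0 with a median of 0.19, which became -0.11 without Tet2 cKO replicate 1.

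Cartilage genes were uneven. Of 15 tested, 2 were above and 13 below 0, and the median was -0.79, with -1.997 without Tet2 cKO replicate 3 and -0.22 without Ctrl replicate 2. Col10a1, the collagen of hypertrophic growth plate cartilage, had 1377, 1039 and 740.1 normalized counts in Ctrl and 2.47, 13.7 and 1803 in Tet2 cKO. Tet2 cKO replicates 1 and 2 were close to none and replicate 3 exceeded all Ctrl libraries, so the groups overlapped (limma adjusted p = 1). The Tet1 cKO libraries had 5.46, 7.86 and 16.1 and the Tet1/2 cKO libraries 40.4, 15.2 and 7.68, so 8 of 9 knockout libraries were far below Ctrl. Without Tet2 cKO replicate 3, Col10a1 and Vill passed the threshold as lower beside Tdg. Col2a1, the collagen of all hyaline cartilage, had 3343, 17867 and 5885 in Ctrl and 13228, 1637 and 12277 in Tet2 cKO.

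Bone resorption genes mostly overlapped between the groups. Of 16 osteoclast genes 5 were above and 11 below 0 with a median of -0.11. Against 3.43% of all genes tested, 2 of these 16 genes were lower without overlap. They were Itgb3, an integrin shared with platelets, and Ostm1, which is needed for acid secretion. Ctsk, the collagen-cleaving protease of osteoclasts, had 22193, 61556 and 24875 normalized counts in Ctrl and 37051, 16390 and 61552 in Tet2 cKO. Acp5, their tartrate-resistant phosphatase, had 19197, 67679 and 21634 and 29556, 16730 and 52859.9. The highest libraries for both were Ctrl replicate 2 and Tet2 cKO replicate 3. Tnfsf11, the osteoclast-forming ligand RANKL, had 168, 307 and 271 in Ctrl and 363, 153 and 692 in Tet2 cKO (log2 difference 0.49, SE 0.50), and its decoy receptor Tnfrsf11b 424, 506 and 387 and 902, 244 and 585 (log2 difference 0.21, SE 0.46).

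**Figure D5:**
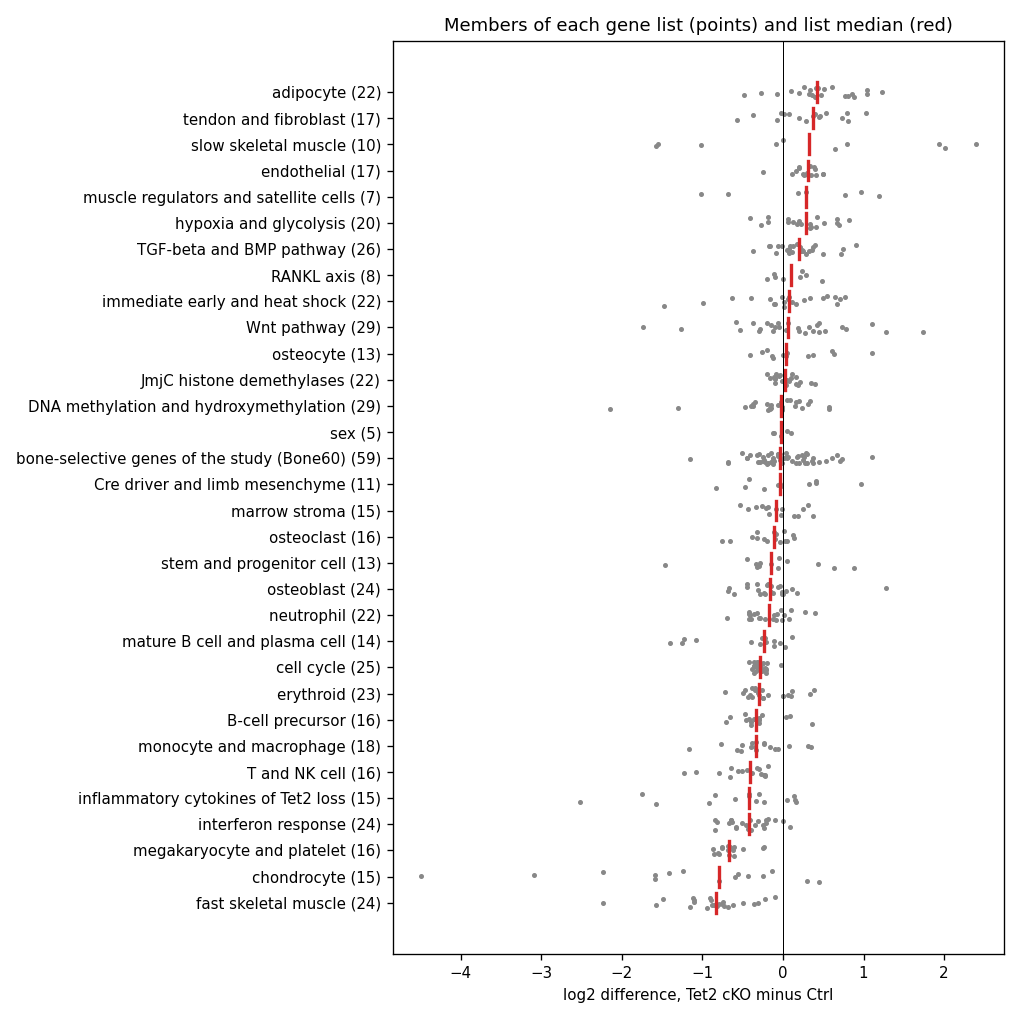
Log2 difference of each tested list member, Tet2 cKO minus Ctrl (grey points, horizontal axis), for the gene lists (vertical axis, number of genes in brackets), with the list median in red. Medians run from -0.83 for fast skeletal muscle to 0.42 for adipocytes, and most lists have members on both sides of 0.

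Fat and vessel genes leaned upward. Of 22 adipocyte genes 19 were above 0, with a median of 0.42, led by Plin1, which coats lipid droplets, at 1.23 (SE 0.92). Only 1 of the 22 had groups that did not overlap, against 2.54% of all genes tested that were higher without overlap. It was Dgat2, the last enzyme of triglyceride synthesis, at 1192, 1124 and 1071 normalized counts in Ctrl and 2511, 2374 and 1284 in Tet2 cKO. Of 17 endothelial genes 16 were above 0 with a median of 0.31. Both medians turned below 0 without Tet2 cKO replicate 1, to -0.10 and -0.079.

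Stromal lists differed in which library set their direction. Of 17 tendon and fibroblast genes 13 were above 0 (median 0.37), with Tnmd, the tendon protein tenomodulin, at 57.1, 459 and 312 normalized counts in Ctrl and 1833, 192 and 71.4 in Tet2 cKO. Without replicate 1 the median was -0.42. The 15 marrow stroma genes had a median of -0.08, between -0.20 and 0.15 when single libraries were left out, and Cxcl12, the chemokine that holds blood stem cells in marrow, had 96014, 56369 and 81509.5 in Ctrl and 91551, 45307 and 102253 in Tet2 cKO. Only 1 of the 15 stroma genes was lower without overlap, against 3.43% of all genes tested. It was Angpt1, a vessel-stabilizing factor, at 1610.4, 2197 and 1708 in Ctrl and 1277, 1239 and 1244 in Tet2 cKO (log2 difference -0.54, SE 0.20, limma unadjusted p = 0.0217). Of 20 genes of hypoxia and glycolysis 16 were above 0 with a median of 0.28, which was -0.081 without replicate 1.

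Blood cell lists leaned downward, and those of megakaryocytes, T and NK cells, and monocytes and macrophages had medians below 0 whichever library was left out. All 16 megakaryocyte and platelet genes were below 0, with a median of -0.67 that lay between -0.94 and -0.24 when single libraries were left out. Of these, 5 had groups that did not overlap, or 5 of 16 against 3.43% of all genes tested, and none passed the threshold. Ppbp, a platelet chemokine, had 39777, 34181 and 39553 normalized counts in Ctrl and 11830.4, 27684 and 27177 in Tet2 cKO (log2 difference -0.86, SE 0.36). Tet2 cKO replicate 1 was the lowest library for it. Among 18 monocyte and macrophage genes 15 were below 0 with a median of -0.33, and 3 did not overlap, of which Ccr2, the chemokine receptor that brings monocytes to tissue, had 7167, 8268 and 9602 and 3638, 6615 and 4749.6. All 16 T and NK cell genes were below 0 as well, with a median of -0.41 and 3 of 16 without overlap, among them Trac, the constant region of the T cell receptor α chain, with 263, 294 and 227 and 54.4, 137 and 179. The neutrophil, B-cell precursor, erythroid and cell cycle medians, at -0.17, -0.33, -0.30 and -0.29, turned above 0 without the marrow-poor Tet2 cKO replicate 1, to 0.32, 0.10, 0.18 and 0.13.

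Antibody genes made up 28 of the 133 genes with a 2-fold difference and no overlap. Of 207 immunoglobulin genes tested, a group chosen after its values were seen, 26 were above and 181 below 0, with a median of -1.28, and 34 were lower without overlap while 0 were higher without overlap, against 3.43% and 2.54% of all genes tested. Igkc, the κ constant region, had 49609, 41678 and 32475 normalized counts in Ctrl and 5944, 22523 and 25619.9 in Tet2 cKO. Jchain, which joins IgM and IgA in plasma cells, had 16554, 21654 and 16543 and 3213, 9844 and 10268, and Ighm, the μ heavy chain, 99226, 67417 and 81634 and 16654, 38799.6 and 62736. Igkc, Jchain and Ighm were each lower in all Tet2 cKO libraries than in any Ctrl library, and lowest in replicate 1. None passed the threshold (limma adjusted p = 1 for each). The median of the block was -0.35 without Tet2 cKO replicate 1. Of the 14 genes of mature B cells and plasma cells, 12 were below 0, with a median of -0.24 (-0.62 without Ctrl replicate 2 and -0.026 without Ctrl replicate 1), and 3 were lower without overlap. Ms4a1 of this list, the B cell surface protein CD20, had 1715, 849 and 1162 in Ctrl and 988, 1193 and 1322 in Tet2 cKO, with overlapping groups. The Tet1 cKO libraries were also low for Igkc, at 16111, 23879.5 and 14172. In the Tet1/2 cKO libraries Igkc stood at 39130, 50719 and 13456, so only replicate 3 was below the Ctrl range.

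Inflammatory genes linked to TET2 loss in blood leaned downward. Of 15 inflammatory genes tested, 4 were above and 11 below 0 with a median of -0.42, and none passed the threshold. Only 1 of the 15 was lower without overlap, against 3.43% of all genes tested. It was Il1a, an interleukin of the same family as Il1b, at 331, 349 and 364 normalized counts in Ctrl and 137, 235 and 225 in Tet2 cKO. Il1b had 1681, 848 and 1097 normalized counts in Ctrl and 450, 1018 and 1423 in Tet2 cKO, and Il6 19.0, 47.4 and 31.7 and 0, 32.3 and 23.8. Of 24 interferon response genes 22 were below 0, with a median of -0.42 that ranged from -0.54 to -0.20 when single libraries were left out. Against 3.43% of all genes tested, 3 of these 24 genes were lower without overlap. Oasl2, an interferon-induced antiviral protein, was 1 of them, with 2050.2, 2249 and 1701 in Ctrl and 1136, 1674 and 1214 in Tet2 cKO.

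Genes of DNA methylation and demethylation, Tdg included, differed little in median. Of 29 genes tested, 10 were above and 19 below 0, with a median of -0.020. Without overlap, 1 was higher and 5 lower, against 2.54% and 3.43% of all genes tested. Tdg is among the 19 and among the 5. The methyltransferases Dnmt1 and Dnmt3a had log2 differences of -0.060 (SE 0.39) and -0.013 (SE 0.20). Mbd4, a glycosylase that like TDG removes thymine from mismatches, had 1117, 1075 and 1094 normalized counts in Ctrl and 665, 1013 and 945 in Tet2 cKO. The groups did not overlap (log2 difference -0.35, SE 0.20, unadjusted p = 0.109). Idh1, which makes α-ketoglutarate in the cytosol, had 3910.2, 4477 and 3864 and 3103, 3250.4 and 3103 (log2 difference -0.37, SE 0.20, unadjusted p = 0.0965). Mbd3, a subunit of the NuRD complex, was the 1 higher gene, at 1956, 2174 and 2362 in Ctrl and 2654, 2939 and 2595 in Tet2 cKO (log2 difference 0.34, SE 0.15). The 22 tested JmjC histone demethylases, dioxygenases with the same cofactors, had 12 above and 10 below 0 and stayed between -0.20 and 0.40.

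Few genes passed the threshold between Tet2 cKO and the other knockouts by direct test. Against Tet1 cKO, no gene was higher or lower at a limma adjusted p below 0.05 (0% of 16780 in each direction), and 669 had an unadjusted p below 0.05. Slfn8 and Sox13 had log2 differences of -1.85 and 1.29 in this comparison (limma adjusted p = 0.89 and 0.998), while Tdg and Tdg-ps2 had 0.100 (SE 0.22) and 0.058 (SE 0.49). In Tet1/2 cKO against Tet2 cKO, Tdg was the 1 gene past the threshold as higher and Tdg-ps2 the 1 as lower (0.00596% each). An unadjusted p below 0.05 was found for 2841 of 16780 genes there. Slfn8 and Sox13 had log2 differences of 1.00 and -1.29 in Tet1/2 cKO against Tet2 cKO (limma adjusted p = 0.261 and 0.245). Both comparisons share the Tet2 cKO libraries and so their spread of tissue content. Leaving out Tet2 cKO replicate 2 changed the second one from 1 higher and 1 lower gene to 239 and 496.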

How the data were processed

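Femur RNA of 4 genotypes was sequenced by the authors as 3 biological replicates of each (TruSeq v2, paired ends of 50 bases). Reads were aligned to mm10 with STAR 2.6.0b-1 and counted with featureCounts 1.6.3, as the methods and the submitters' notes say; the gene annotation used for counting is not given in the sources used here. The deposited signal is counts divided by DESeq2 2.11.40.2 size factors. Depth was recovered from the values, which are whole multiples of 1 read in every library (100% of values up to 1000 reads within 0.01).

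Genes with at least 10 normalized counts in 3 of 12 libraries (16780 of 25938) were tested with limma 3.58.1 (trend) on log2(normalized count + 1), two-sided, with all 12 libraries sharing 1 spread estimate, Benjamini-Hochberg adjustment and a threshold of 0.05. Fold changes are on this log2 scale, which understates low genes. Alternatives were TMM scaling, other filters and pseudocounts, only the 6 libraries, a replicate block, each library left out, tissue lists as covariates, and edgeR 4.0.16 and DESeq2 1.42.0 on recovered reads. No pair of replicates within Ctrl or within Tet2 cKO agreed within sampling noise (other pairs were not compared). Nothing states that each library is 1 mouse, and p-values measure the spread between these libraries.

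Named genes are Tet1, Tet2, Tet3 and Prrx1, the 12 strongest in each direction without overlap and a mean of at least 50 (past the threshold first, then by unadjusted p), the 4 highest members of each list and any member past the threshold; members named beyond these were chosen after their values were seen. Some genes that this rule names are not reported here. The comparison and lists were chosen with earlier results of these data known. Positions and sequences come from RefSeq on GRCm38.p6, which shares mm10 coordinates. Columns of the other experiments were not used here.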

Additional observations from a re-analysis of the deposited data

Results flagged for a closer look

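Tdg and Tdg-ps2 differed between knockout genotypes by a direct test. In Tet1/2 cKO against Tet2 cKO, Tdg was higher by 2.14 on the log2 scale (limma adjusted p = 0.0162) and Tdg-ps2 was lower, with a log2 difference of -4.34 (limma adjusted p = 0.0184). The Tet1/2 cKO libraries had 928, 789.7 and 701 normalized counts of Tdg and 96.2, 25.9 and 21.1 of Tdg-ps2, and the Tet1 cKO libraries 153, 205 and 155 and 734, 699.6 and 827. With 3 libraries per group, no group was large enough for a search for single outlying libraries.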

How the results depend on the processing

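Tet2 cKO against Ctrl gave 1 higher and 1 lower gene under TMM scaling, without a filter, with a minimum of 50, with pseudocounts of 0.5 or 5, and with muscle, marrow or osteoblast content as a covariate (the last chosen after seeing the data). It gave 0 and 0 in the 6 libraries alone, 1 and 0 with edgeR and 6 and 13 with DESeq2 on recovered reads, and leaving out single libraries gave 0 to 1 higher and 0 to 3 lower. The labels give replicate numbers and state no pairing. Deviations of same-numbered Ctrl and Tet2 cKO libraries had correlations of -0.49, -0.080 and -0.21. These cannot settle whether the libraries were paired, because tissue content differed among them. A replicate block gave 0 higher and 0 lower genes here, in Tet2 cKO against Tet1 cKO and in Tet1/2 cKO against Tet2 cKO. In the last comparison, leaving out single libraries gave 0 to 239 higher and 0 to 496 lower genes; no alternative tried gave a call in Tet2 cKO against Tet1 cKO. Called members over all gene lists numbered 1 in the main analysis, 0 in the 6 libraries alone and with the block, and 0 to 2 with single libraries left out. Summed with its copies, a setting chosen after seeing the data, Tdg changed from -2.15 to 0.20. Leaving out Tet2 cKO replicate 1 turned the sign of 14 of 32 list medians, replicate 2 of 7 and replicate 3 of 6. TMM moved the median of all genes from -0.011 to -0.041. Without globin, mitochondrial and the 10 most abundant genes, the mean share in Ctrl fell from 3.91% to 1.31% for osteoblast and from 3.38% to 1.54% for neutrophil genes. The causes of these changes were not tested, except that the 6 libraries alone and the left-out libraries hold fewer samples. Depth was alike between the groups, and the spread between Tet2 cKO libraries limits the comparison.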
